A study of Homo sapiens with 2 samples.

Results

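DUSP4, DUSP5, DUSP6, SPRY2, SPRY4, SPRED1, SPRED2, ETV4, ETV5 and PHLDA1, 10 genes of RAS-ERK feedback and output among the 33538 human genes counted, are described here in UMUC3, a human bladder carcinoma cell line. They were taken by gene symbol and were chosen by earlier results of these data, including the contrast between the libraries. The values of that contrast are therefore given as a description, with no test. The study made 2 single-cell 3' RNA libraries, 1 from UMUC3 cells with the genotype control and 1 from UMUC3 cells with the genotype GANAB knockdown. Both kinds of cells were placed orthotopically in the bladders of C57 nude mice, grew there for 14 days, and were loaded at 10000 cells per channel. GANAB encodes the alpha subunit of glucosidase II, which trims glucose residues from N-glycans in the endoplasmic reticulum. Both groups share the line, the host strain and the time. The knockdown agent, the host's age and the number of animals behind each library were not found in the labels. Nude mice lack most T cells and keep other host cells. With 1 library per group there is no replicate, so no difference below has a test, and every interval covers counting error only.

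Growth factor receptors activate RAS, RAF, MEK and ERK in sequence, and ERK raises the transcription of genes that restrain the same pathway. The dual-specificity phosphatases among these remove phosphates from ERK or related kinases, the Sprouty and SPRED proteins act upstream at receptors and RAS, and the ETS factors ETV4 and ETV5 carry the signal into transcription. Their messenger RNA is often used as a readout of ERK output in tumour cells, and RAS-ERK signalling is a frequently altered pathway of urothelial carcinoma.

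Barcodes with at least 15000 unique molecular identifiers (UMIs) and at most 20% mitochondrial UMIs were taken as cells, 4385 in the control library and 2672 in the knockdown library. Their median depth was 44046 and 40933 UMIs, and only 4 cell barcodes occurred in both libraries. The targeted gene GANAB stood at 127 CPM in the control cells (a gene's share of the summed UMIs, scaled to 1000000 UMIs) and 42.3 CPM in the knockdown cells. Of 12 markers of UMUC3 cells, 11 reached 10 CPM, while no marker of urothelial differentiation, fibroblasts, endothelium, neutrophils, lymphocytes or red blood cells did. A noncoding RNA, TMEM132D-AS1, divided the cells unevenly: at least 2 of its UMIs were found in 241 control cells (5.50%) and in 1942 knockdown cells (72.7%). None of its UMIs were found in 4102 control cells and 616 knockdown cells. GANAB stood at 130.3 CPM in the control cells with TMEM132D-AS1 and at 126.4 CPM in the control cells without it, so the marked control cells did not have the low GANAB level of the knockdown library. In the knockdown library it stood at 38.1 CPM with and 55.3 CPM without TMEM132D-AS1. The members were compared in all cells, in the cells with TMEM132D-AS1, in the cells without it, and, inside the control library, between the cells with and without it. These 4 comparisons share cells, so their values are given side by side and are not independent of each other.

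Promoter windows from 250 bases before to 50 bases after the annotated start were held for 6 of the 10 genes in RefSeq (GRCh38.p14). A search on both strands for GGAA, the core that ETS proteins bind, found it in 95.5% of 35116 promoters of the same length, with a median of 3 matches. The longer CCGGAA occurred in 17.2% and the AP-1 motif TGANTCA in 7.71%. CCGGAA contains GGAA, so each of its matches is also counted as a GGAA match. The windows of DUSP6, SPRY4 and PHLDA1 are shown because over all cells DUSP6 was lower and PHLDA1 higher in the knockdown library, while the difference of SPRY4 depended on TMEM132D-AS1. That of PHLDA1 depended on it too, at log2 ratios of 0.92 without and 0.10 with TMEM132D-AS1. The windows are written 5' to 3' along the gene, and capitals mark each GGAA or its reverse complement TTCC. All of them lie on the minus strand, at chr12:89352452-89352751, chr5:142324198-142324497 and chr12:76031727-76032026.
DUSP6: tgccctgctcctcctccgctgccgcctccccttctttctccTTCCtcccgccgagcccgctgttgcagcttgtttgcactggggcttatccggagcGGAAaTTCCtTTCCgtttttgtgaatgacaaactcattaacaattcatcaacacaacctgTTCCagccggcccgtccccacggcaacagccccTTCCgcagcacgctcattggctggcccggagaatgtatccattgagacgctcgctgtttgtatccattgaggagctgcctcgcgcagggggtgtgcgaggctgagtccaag
SPRY4: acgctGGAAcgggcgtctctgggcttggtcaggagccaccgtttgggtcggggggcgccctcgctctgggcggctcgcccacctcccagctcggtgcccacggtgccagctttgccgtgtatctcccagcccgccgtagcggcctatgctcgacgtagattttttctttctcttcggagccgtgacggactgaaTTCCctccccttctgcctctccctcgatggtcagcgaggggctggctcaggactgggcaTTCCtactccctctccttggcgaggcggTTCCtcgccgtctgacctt
PHLDA1: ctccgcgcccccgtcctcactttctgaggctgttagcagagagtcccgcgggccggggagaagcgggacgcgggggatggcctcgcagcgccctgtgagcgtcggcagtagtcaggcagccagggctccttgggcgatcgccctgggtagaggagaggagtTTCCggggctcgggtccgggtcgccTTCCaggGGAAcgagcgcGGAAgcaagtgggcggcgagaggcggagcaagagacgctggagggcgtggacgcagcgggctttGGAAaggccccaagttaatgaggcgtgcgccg
The DUSP6 window held 6 matches to GGAA, the SPRY4 window 4 and the PHLDA1 window 5. The PHLDA1 window also held 1 match to CCGGAA, and so did 1 of the 3 windows annotated for SPRY2. TGANTCA was found in 1 of the 2 windows of SPRED2, with 2 matches, and in no window of DUSP6, SPRY2, SPRY4, SPRED1 or PHLDA1. Matches are descriptions of letters and not of binding.

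Over all cells, a gene was called higher or lower in the knockdown library when it reached 10 CPM in either library, its ratio was at least 1.5 and the exact conditional binomial 95% interval of the ratio excluded 1. This is a rule of size, not a test. All 10 genes reached 10 CPM, ETV4 through the control library only. DUSP4 and PHLDA1 were called higher and DUSP6 and ETV4 lower, while the other 6 were not past the rule, and the median log2 ratio of the 10 was 0.24. Of the 7872 genes measured in this comparison, 7.69% were called higher and 10.4% lower, with a median log2 ratio of -0.07. Since the genes were selected on this contrast, nothing is read from these shares. The median mitochondrial share of a cell's UMIs was 1.51% in the control and 0.923% in the knockdown cells, and its part in these ratios was not tested. The summed UMIs of a library do not tell fewer cells from less RNA per cell, and levels of single genes are not compared with each other.

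**Figure D1:**
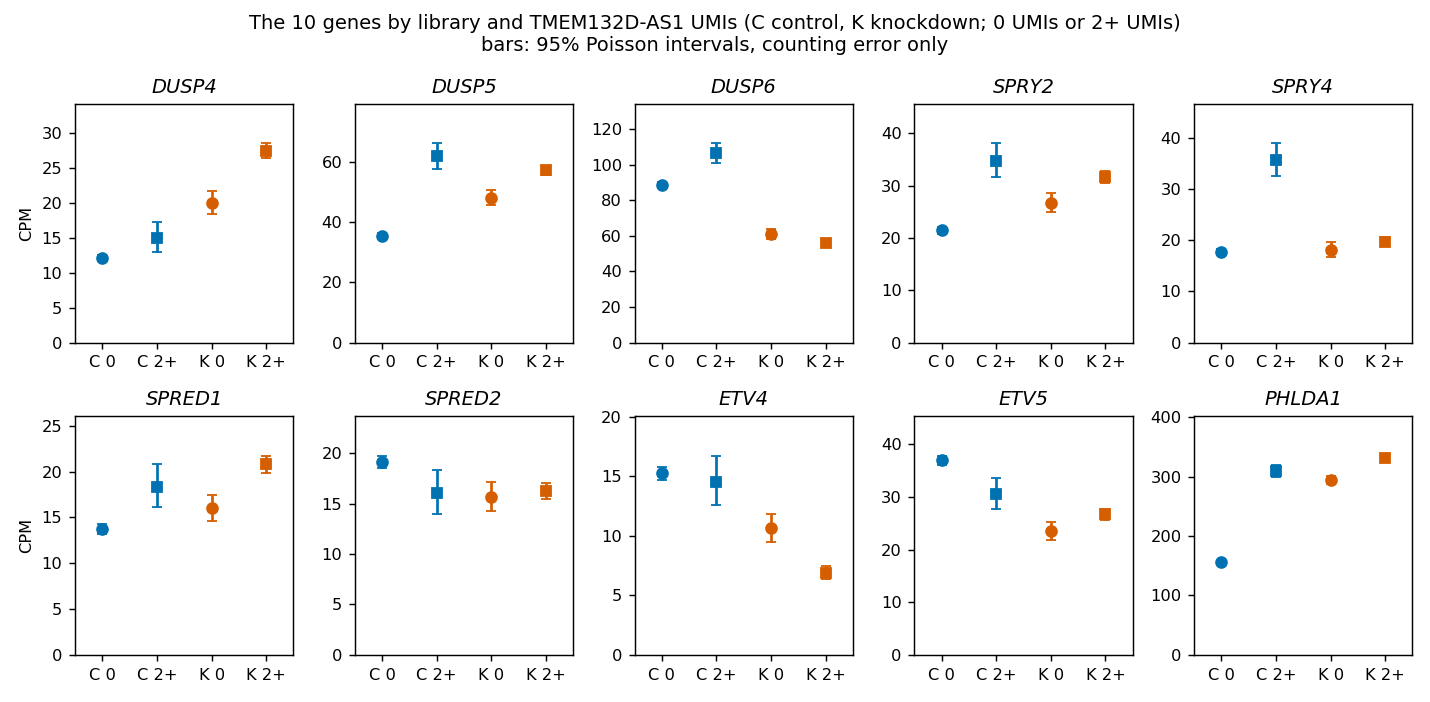
Level of each of the 10 genes in CPM (y axis, starting at 0, scaled per gene) in 4 sets of cells (x axis): control (C, blue) and knockdown (K, orange), without (0, circles) or with at least 2 UMIs (2+, squares) of TMEM132D-AS1. Bars are exact Poisson 95% intervals from 1 library per group. DUSP6, ETV4 and ETV5 are lower in both knockdown sets than in both control sets, though the bars of ETV5 overlap in the cells with TMEM132D-AS1. DUSP4 is higher in both knockdown sets, and SPRY4 stands apart at 35.7 CPM in the control cells with TMEM132D-AS1.

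The 3 phosphatases did not move together. DUSP6, a cytoplasmic phosphatase that acts on ERK (ENSG00000139318, chr12:89347232-89353271, minus strand, GENCODE 29 on GRCh38), stood at 90.2 CPM in the control library, from 19310 UMIs, and at 57.0 CPM in the knockdown library, from 7566. Knockdown over control gave a log2 ratio of -0.66 (95% counting interval -0.70 to -0.62). In the cells with TMEM132D-AS1 it was 106 against 56.0 CPM, a log2 ratio of -0.93 (-1.01 to -0.84), and in the cells without it 88.9 against 61.0 CPM, a log2 ratio of -0.54 (-0.61 to -0.47) that missed the ratio of 1.5. Both knockdown sets thus lay below both control sets, and their Poisson intervals did not overlap those of the control sets. Within the control library the cells with TMEM132D-AS1 had a log2 ratio of 0.26 over those without, opposite in direction to the difference between the libraries.

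DUSP4, a nuclear phosphatase of ERK and other MAP kinases (ENSG00000120875, chr8:29333064-29350668, minus strand), went the other way. It stood at 12.4 CPM in the control library and 25.7 CPM in the knockdown, from 2652 and 3414 UMIs, a log2 ratio of 1.05 (0.98 to 1.13). With TMEM132D-AS1 the levels were 14.99 and 27.4 CPM (log2 ratio 0.87, 0.67 to 1.08), and without it 12.1 and 19.996 CPM (0.73, 0.60 to 0.86). DUSP4 was the only one of the 10 genes called higher in the knockdown cells both with and without TMEM132D-AS1. Inside the control library the difference between cells with and without the marker was smaller and not past the rule, at a log2 ratio of 0.31 (0.10 to 0.52).

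DUSP5, a nuclear phosphatase specific for ERK (ENSG00000138166, chr10:110497838-110511544, plus strand), followed the marker within the control library. It stood at 37.2 CPM in the control library and 55.03 CPM in the knockdown, a log2 ratio of 0.57 (0.52 to 0.61) whose fold of 1.48 was just under the rule. The control cells with TMEM132D-AS1 had 61.7 CPM and those without had 35.3 CPM, a log2 ratio of 0.80 (0.70 to 0.91) that passed the rule. The knockdown cells with TMEM132D-AS1, at 57.1 CPM, lay close to the control cells with the marker, at a log2 ratio of -0.11 (-0.22 to -0.01). Among the cells without it the knockdown level was 48.1 CPM, a log2 ratio of 0.44 (0.36 to 0.52) over the control. The direction between the libraries thus differed between the marked and unmarked cells, a difference that was not tested.

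Sprouty and SPRED proteins are membrane-associated inhibitors. SPRY2 and SPRY4 block RAS activation below receptors, and SPRED1 and SPRED2 hold RAS inactive, SPRED1 by bringing the GTPase activator neurofibromin to the membrane. None of the 4 was called over all cells. Their log2 ratios of knockdown over control were 0.44 (0.38 to 0.50) for SPRY2, 0.04 (-0.03 to 0.11) for SPRY4, 0.47 (0.40 to 0.55) for SPRED1 and -0.22 (-0.29 to -0.14) for SPRED2. The 2 Sprouty genes, however, were higher in the control cells with TMEM132D-AS1 than in those without.

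SPRY4 (ENSG00000187678, chr5:142310427-142326455, minus strand) gave 18.9 CPM in the control library and 19.4 CPM in the knockdown, from 4048 and 2575 UMIs. Split by TMEM132D-AS1, the control cells gave 35.7 CPM with and 17.7 CPM without it, and the knockdown cells 19.7 and 18.2 CPM. The control cells with the marker were the one set that stood apart. The log2 ratio within the control library was 1.02 (0.88 to 1.15), and in the cells with the marker the knockdown was called lower, at a log2 ratio of -0.86 (-1.0 to -0.71). Without the marker the ratio was 0.04 (-0.09 to 0.17). The small ratio over all cells changed sign in 3 of 11 alternative settings, with a range of -0.04 to 0.07. SPRY4-AS1, which overlaps SPRY4 on the opposite strand, stood at 1.09 and 1.12 CPM. Whether reads were counted by strand is not stated in the labels.

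SPRY2 (ENSG00000136158, chr13:80335976-80340951, minus strand) also followed the marker in the control library, with 34.8 CPM in cells with TMEM132D-AS1 and 21.4 CPM in cells without it (log2 ratio 0.70, 0.56 to 0.84). Its knockdown levels were 31.7 and 26.7 CPM. In the cells with the marker the interval of knockdown over control included no difference (-0.14, -0.28 to 0.01), unlike that of SPRY4. Without it the log2 ratio was 0.32 (0.21 to 0.42), which did not reach the rule. SPRY2 and SPRY4 thus shared the difference within the control library but had different values in the knockdown cells with TMEM132D-AS1.

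SPRED1 (ENSG00000166068, chr15:38252326-38357249, plus strand) gave 14.1 CPM in the control library and 19.6 CPM in the knockdown, and the 4 sets of cells ranged from 13.8 to 20.8 CPM. SPRED2 (ENSG00000198369, chr2:65310851-65432637, minus strand) gave 18.9 and 16.2 CPM, with a range over the 4 sets of 15.6 to 19.1 CPM. Neither gene was called in any of the comparisons. Among cells with TMEM132D-AS1 the knockdown over control log2 ratios were 0.18 (-0.01 to 0.37) for SPRED1 and 0.02 (-0.19 to 0.23) for SPRED2, and both intervals include no difference.

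The ETS factors were lower in the knockdown library, ETV4 past the rule and ETV5 not. ETV4 (ENSG00000175832, chr17:43527844-43579620, minus strand), a PEA3 subfamily factor, had 15.2 CPM from 3250 UMIs in the control library and 7.77 CPM from 1031 UMIs in the knockdown, a log2 ratio of -0.97 (-1.07 to -0.86). With TMEM132D-AS1 the levels were 14.6 and 6.90 CPM (log2 ratio -1.08, -1.31 to -0.84). In the cells without it they were 15.2 and 10.6 CPM (-0.52, -0.69 to -0.35), a difference in the same direction that missed the rule. Within the control library ETV4 gave a log2 ratio of -0.07 (-0.28 to 0.14) between cells with and without the marker, an interval that includes no difference. DHX8, which overlaps ETV4 on the opposite strand, stood at 11.3 CPM in the control library and 18.3 CPM in the knockdown, the opposite order to ETV4.

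ETV5 (ENSG00000244405, chr3:186046308-186110318, minus strand), the other PEA3 factor in the set, stood at 36.5 and 26.0 CPM, a log2 ratio of -0.49 (-0.55 to -0.43). It differed most where ETV4 differed least. In the cells without TMEM132D-AS1 it was called lower, at 36.9 against 23.4 CPM (-0.66, -0.77 to -0.55), and in the cells with it the levels were 30.5 and 26.7 CPM (-0.19, -0.34 to -0.04). Within the control library the marked cells were lower than the unmarked ones by less than the rule, at a log2 ratio of -0.28 (-0.42 to -0.13).

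PHLDA1, a growth-factor-induced gene for a pleckstrin homology-like domain protein (ENSG00000139289, chr12:76025447-76033932, minus strand), was the most deeply counted of the 10. It stood at 166 CPM from 35615 UMIs in the control library and at 321 CPM from 42632 UMIs in the knockdown, a log2 ratio of 0.95 (0.93 to 0.97). The control cells without TMEM132D-AS1, at 156 CPM, were the one low set. The control cells with it reached 309 CPM, the knockdown cells without it 294 CPM and those with it 331 CPM. Knockdown over control was accordingly 0.92 (0.88 to 0.95) without the marker and 0.10 (0.05 to 0.15) with it, and the ratio within the control library was 0.99 (0.94 to 1.03).

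**Figure D2:**
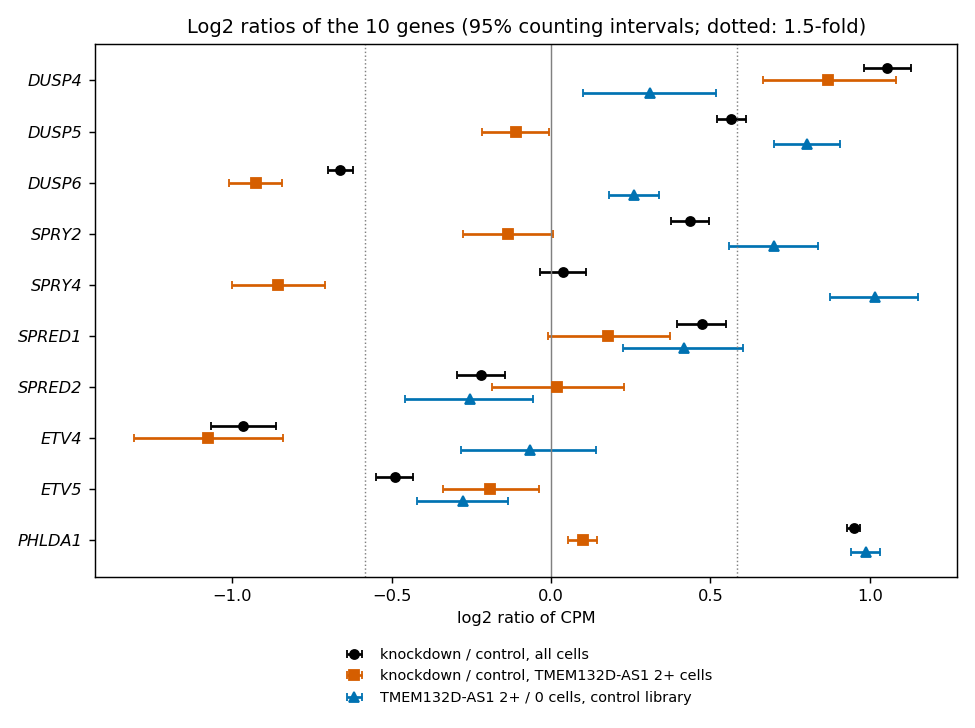
Log2 ratio of CPM (x axis) for each gene (y axis) in 3 comparisons: knockdown over control in all cells (black circles), the same in cells with TMEM132D-AS1 (orange squares), and cells with over cells without TMEM132D-AS1 in the control library (blue triangles). Bars are 95% counting intervals and dotted lines mark 1.5-fold; the blue and orange points lie on opposite sides of 0 for DUSP5, DUSP6, SPRY2, SPRY4 and, close to 0, SPRED2, and these ratios share the same 241 control cells.

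Counted together, the 10 genes differed by comparison. In the cells with TMEM132D-AS1, 1 gene (DUSP4) was called higher and 3 (DUSP6, SPRY4, ETV4) lower in the knockdown, with a median log2 ratio of -0.12. Among all 7720 genes measured there, 3.58% were called higher and 4.59% lower, with a median of -0.09. Scaling by a trimmed mean of M values moved the split of all called genes from 276 higher and 354 lower to 361 higher and 275 lower, and left the 10 genes' counts as they were. In the cells without TMEM132D-AS1, 2 genes (DUSP4, PHLDA1) were called higher and 1 (ETV5) lower, with a median of 0.13, beside 7.46% and 8.53% of 7867 genes.

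Within the control library 4 of the 10 genes (DUSP5, SPRY2, SPRY4, PHLDA1) were called higher in the cells with TMEM132D-AS1 and 0 lower, with a median log2 ratio of 0.36. Of 7748 genes, 4.65% were called higher and 4.47% lower, with a median of -0.01. This comparison has both sets of cells in 1 library and so shares its preparation, though the genes were proposed with these cells in view. The marked cells were deeper, with a median of 51552 against 43787 UMIs. Their summed level of 7 fibroblast markers was 26.0 against 14.4 CPM, and 13.7 and 7.92 CPM in the knockdown cells with and without the marker. Of the 7 markers, 5 (COL1A1, COL1A2, COL3A1, PDGFRA and PDGFRB) were detected, and DCN and LUM had 0 UMIs in every set. CD68, a macrophage marker, stood at 41.8 against 25.7 CPM, while the other 6 macrophage markers were each under 1 CPM. The part of depth and of these markers in the result was not tested.

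The split into terciles by UMIs per cell over both libraries (boundaries 34583 and 53949 UMIs, with 521 and 506 of 7057 cells within 5% of them) gave each tercile 1354 to 1516 control and 836 to 998 knockdown cells. From the shallowest to the deepest tercile, knockdown over control gave log2 ratios of -0.79, -0.53 and -0.69 for DUSP6 and 0.68, 1.32 and 1.05 for DUSP4. For ETV4 they were -1.34, -1.35 and -0.78, and for PHLDA1 0.95, 0.83 and 1.01. These 4 genes kept their direction in every tercile, and so did DUSP5, SPRY2, SPRED1, SPRED2 and ETV5. The intervals of SPRY2 in the shallowest tercile and of SPRED2 in the middle one included no difference. SPRY4, with -0.11, -0.16 and 0.18, did not.

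Cell cycle transcripts moved with the groups. The median share of a cell's UMIs in 42 S phase and 52 G2 and M phase genes was 0.367% for control cells and 0.197% for knockdown cells. Over all cells the knockdown had 16 of the 36 measured S phase genes lower and 0 higher, and 9 of the 52 measured G2 and M phase genes lower and 1 higher, beside 10.4% of all genes lower and 7.69% higher. Among cells with TMEM132D-AS1, where DUSP6, SPRY4 and ETV4 were called lower, 26 of 36 S phase genes were lower, with a median log2 ratio of -0.70, beside 4.59% of all genes, and 2 of 51 G2 and M phase genes were lower. Among cells without it 6 of 36 and 1 of 52 were lower, beside 8.53% of all genes. When the cells of both libraries were split into terciles by that share, the lowest tercile held 1195 control and 1157 knockdown cells and the highest 1757 and 596. The 10 genes are in neither list, so their levels can be read within each tercile, although the highest tercile was also deeper.

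ETV4 and DUSP4 varied with the cycle share in opposite ways and in both libraries. ETV4 went over the terciles from 8.98 through 13.6 to 18.6 CPM in the control and from 3.32 through 6.52 to 13.4 CPM in the knockdown library. DUSP4 went from 16.6 through 15.3 to 8.93 CPM in the control and from 35.6 through 29.8 to 11.9 CPM in the knockdown. Both differences between the libraries were largest in the cells with few cycle transcripts and smallest in those with many: the log2 ratio went from -1.43 through -1.06 to -0.47 for ETV4 and from 1.10 through 0.96 to 0.41 for DUSP4. ETV4 thus remained lower, and DUSP4 higher, in the knockdown within each tercile, by less than 1.5-fold in the highest.

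DUSP6 was lower in the knockdown in each tercile. Its control levels were 109.6, 96.0 and 79.0 CPM and its knockdown levels 59.4, 63.2 and 48.5 CPM, log2 ratios of -0.88, -0.60 and -0.70. PHLDA1 was higher in each, at log2 ratios of 0.84, 0.90 and 1.04. DUSP5 and SPRY2 differed least in the lowest tercile, with log2 ratios of 0.19 and 0.08, and more in the highest, with 0.84 and 0.51. SPRED1 stood at 17.6, 15.7 and 11.7 CPM in the control and 22.8, 24.3 and 11.6 CPM in the knockdown, with a log2 ratio of -0.02 in the cells richest in cycle transcripts. ETV5 varied little with the share, at log2 ratios of -0.45, -0.39 and -0.52. The part of the cell cycle in the difference between the libraries was not tested beyond these values.

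**Figure D3:**
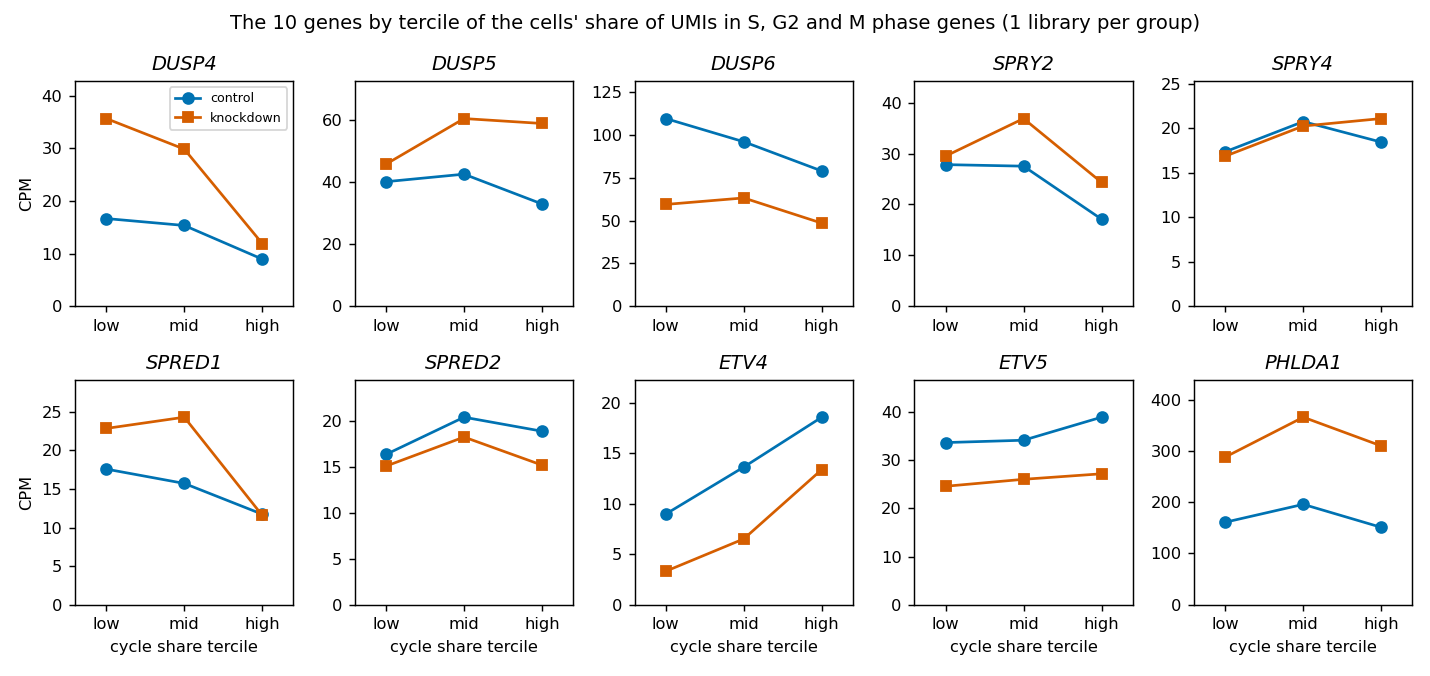
Level of each gene in CPM (y axis, starting at 0, scaled per gene) in cells with a low, middle or high tercile of the share of UMIs in S, G2 and M phase genes (x axis), for the control (blue circles) and knockdown (orange squares) library. No error is drawn; DUSP4 declines and ETV4 increases with the share in both libraries, while DUSP6 is lower and PHLDA1 higher in the knockdown in each tercile.

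Cells were also grouped by their own GANAB transcripts after each was thinned to 15000 UMIs, at which 876 control and 1563 knockdown cells had 0 GANAB UMIs and 2286 control and 356 knockdown cells had at least 2. DUSP6 stood at 86.2 CPM in control cells with 0 and 98.0 CPM in control cells with at least 2 GANAB UMIs, against 56.9 and 67.0 CPM in the knockdown. PHLDA1 stood at 163 and 167 CPM in those control cells and at 305 and 297 CPM in those knockdown cells. For DUSP4 the control values were 11.8 and 14.0 CPM and the knockdown values 27.8 and 26.2 CPM. For ETV4 they were 14.2 and 13.8 CPM in the control and 4.99 and 7.30 CPM in the knockdown, the latter from 117 and 39 UMIs. For DUSP6, PHLDA1, DUSP4 and ETV4 the libraries differed more than these GANAB groups within a library did. These genes were the ones called between the libraries over all cells, so nothing about GANAB is read from this. By level the same held for DUSP5, SPRED1, SPRED2 and ETV5, but not for SPRY2 and SPRY4. With 0 and at least 2 GANAB UMIs, SPRY2 stood at 22.9 and 23.1 CPM in the control and 29.6 and 23.2 CPM in the knockdown. The part of the GANAB level was not tested. A GANAB count of 0 at this depth does not show that a cell lacked the transcript.

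Cell-to-cell spread was described by the variance over the mean of UMIs in cells thinned to 15000 UMIs, which is 1 for counting noise alone. The median gene had 1.12 in the control library and 1.16 in the knockdown. PHLDA1 had 3.43 and 4.44, DUSP6 2.62 and 2.95, and DUSP5 2.15 and 2.64. These 3 genes were the most dispersed of the 10 in both libraries. SPRY2 (1.69 and 1.81), DUSP4 (1.42 and 1.78) and SPRY4 (1.52 and 1.34) were less dispersed but above the median gene in both. ETV4 (1.04 and 1.13), SPRED2 (1.12 and 1.13), SPRED1 (1.08 and 1.26) and ETV5 (1.21 and 1.27) stood nearer the median gene. A higher ratio is also easier to see in a more deeply counted gene. ETV5 and DUSP5 had similar means in the thinned control cells, 0.52 and 0.54 UMIs.

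Correlations between the 10 genes from cell to cell were weak. Over 4385 control cells the Pearson correlation of log2(count + 1) for their 45 pairs ranged from -0.03 to 0.16 with a median of 0.03, and over 2672 knockdown cells from -0.11 to 0.25 with a median of 0.02. DUSP5 and PHLDA1 gave the highest value in the knockdown library, 0.25, and 0.15 in the control. These cells share a library and a fixed depth, and at these counts a weak correlation is no finding. Ranked by the smaller of the 2 libraries' correlations with the summed log2(count + 1) of the 10 genes, among 4711 genes with at least 20 CPM in both, the nearest were KLF6 (0.25 in the control, 0.34 in the knockdown), ZFP36L1 (0.24 and 0.32), BIRC3 (0.24 and 0.27), MCL1 (0.22 and 0.26) and TM4SF1 (0.21 and 0.22). The median gene had 0.01 and 0.02. The sum was not scaled per gene, so members with more UMIs count for more in it. In the thinned cells PHLDA1 had a mean of 2.43 UMIs in the control and 4.55 in the knockdown, against 0.21 and 0.09 for ETV4.

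Transcripts outside cells were read from barcodes with 10 to 100 UMIs, 81659 in the control library and 77775 in the knockdown. There DUSP6 stood at 68.0 CPM in the control and 38.9 CPM in the knockdown, ETV4 at 14.6 and 5.72 CPM, and PHLDA1 at 184 and 299 CPM. DUSP4 stood at 13.6 and 18.8 CPM. These values rest on few UMIs for DUSP4 (69 and 82) and ETV4 (74 and 25), and no interval is given for them. For these 4 genes the free RNA of each library thus held transcripts at levels within 1.5 times those of its cells and in the same order between the libraries. Genes of fibroblasts and red blood cells did not follow the cells: COL1A1 stood at 81.0 and 70.9 CPM in the free RNA against 6.61 and 5.18 CPM in the cells, and the haemoglobin gene HBB at 0 and 779.5 CPM against 0 and 0.00754 CPM. The part of free RNA in the cells' values was not tested.

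Other genes of the pathway, taken from lists drawn up by function, were read by the same rule. The shares of all genes called, to be set beside the counts of each list, were 7.69% higher and 10.4% lower over all cells and 3.58% and 4.59% in the cells with TMEM132D-AS1. Of 23 other MAPK phosphatases and feedback genes, 12 were measured over all cells, 2 were higher and 1 lower in the knockdown, with a median log2 ratio of -0.02. DUSP1, a stress- and growth-factor-induced phosphatase of MAP kinases, gave 479.9 CPM in the control and 1122 CPM in the knockdown, a log2 ratio of 1.22. Cells with TMEM132D-AS1 gave 879 and 1157 CPM, a log2 ratio of 0.40 that was not past the rule, and within the control library 0.97, which was. DUSP1 thus shared with PHLDA1 a high level in the marked control cells. SOCS3, an inhibitor of cytokine receptor signalling, gave 8.85 and 24.3 CPM over all cells, a log2 ratio of 1.46, and was called higher in the marked cells too (0.94).

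Upstream, 9 of 23 growth factor ligands were measured, 4 higher and 3 lower in the knockdown. NRG1, a ligand of ERBB receptors, gave 31.7 and 69.6 CPM over all cells, while in the cells with TMEM132D-AS1 it gave 67.7 and 73.1 CPM. KITLG, the ligand of the receptor KIT, gave 27.6 and 0.799 CPM over all cells, and 3.66 and 0.676 CPM in the marked cells, where it was under the minimum of 10 CPM. PDGFC was called higher both over all cells, with 34.2 and 60.4 CPM, and in the marked cells, with 31.2 and 62.2 CPM. FGF5 was called lower over all cells, with 18.2 and 8.26 CPM, but not in the marked cells, with 13.4 and 8.95 CPM. Of 8 ligands measured in the marked cells, 1 was called higher (PDGFC) and 0 lower. Of 22 receptor tyrosine kinases, 8 were measured, 2 higher (ERBB2 and AXL) and 0 lower, with a median of 0.32. Of the same 8, 0 were called in either direction in the cells with TMEM132D-AS1. In the cells without it 3 were higher and 0 lower, beside 7.46% of all genes higher and 8.53% lower there. AXL, a receptor activated by GAS6, gave 67.5 and 108.8 CPM over all cells and 89.8 and 112 CPM in the marked cells. Among 20 adaptors and RAS regulators, 14 were measured, 2 were higher and 1 lower. RRAS2, a RAS-related GTPase, was that lower gene, with 25.1 and 11.8 CPM. Of 17 RAF, MEK and ERK kinases and effectors, 12 were measured and 1 was lower (MKNK1, a kinase activated by ERK, 19.9 and 12.9 CPM), with a median of -0.14. Among marked cells 0 of these 12 were called. The counts of both kinase lists are small. Those of the RAF, MEK and ERK list lie near the shares for all genes. The receptor list lies above the share called higher over all cells and in the cells without TMEM132D-AS1. Because the lists were chosen with earlier results known, nothing particular to either is read.

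Downstream, calls went both ways. Of 30 ERK-induced early and delayed targets, 23 were measured over all cells, 6 were higher and 9 lower in the knockdown, with a median of -0.19. Among cells with TMEM132D-AS1 3 were higher and 5 lower of 22, with a median of -0.16, and within the control library 2 were higher and 4 lower of 23. CCND1, the G1 cyclin, gave 772 and 498 CPM over all cells and 836 and 488 CPM in the cells with TMEM132D-AS1, log2 ratios of -0.63 and -0.77. PLAU, the urokinase protease, gave 794 and 332 CPM over all cells (-1.26) and 494 and 339 CPM in the marked cells (-0.54). VGF, a growth-factor-induced secreted protein, gave 261 and 27.1 CPM over all cells (-3.27) and 62.4 and 25.4 CPM in the marked cells (-1.30), and its log2 ratio within the control library was -2.13. KITLG and VGF were thus low in the marked control cells already. PLAU and RRAS2 were also called lower in the marked than in the unmarked control cells, at log2 ratios of -0.73 and -0.81. Of 24 ETS family factors and CIC, the repressor of ETV4 and ETV5, 12 were measured and 1 was lower. That gene was ETS2, with 34.1 and 12.7 CPM over all cells (-1.43) and 18.6 and 11.5 CPM in the cells with TMEM132D-AS1 (-0.69). Within the control library ETS2 was called lower in the marked cells, at a log2 ratio of -0.93. ETS1, with 42.8 and 50.4 CPM, and ELK3, with 85.9 and 96.1 CPM, were not past the rule.

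**Figure D4:**
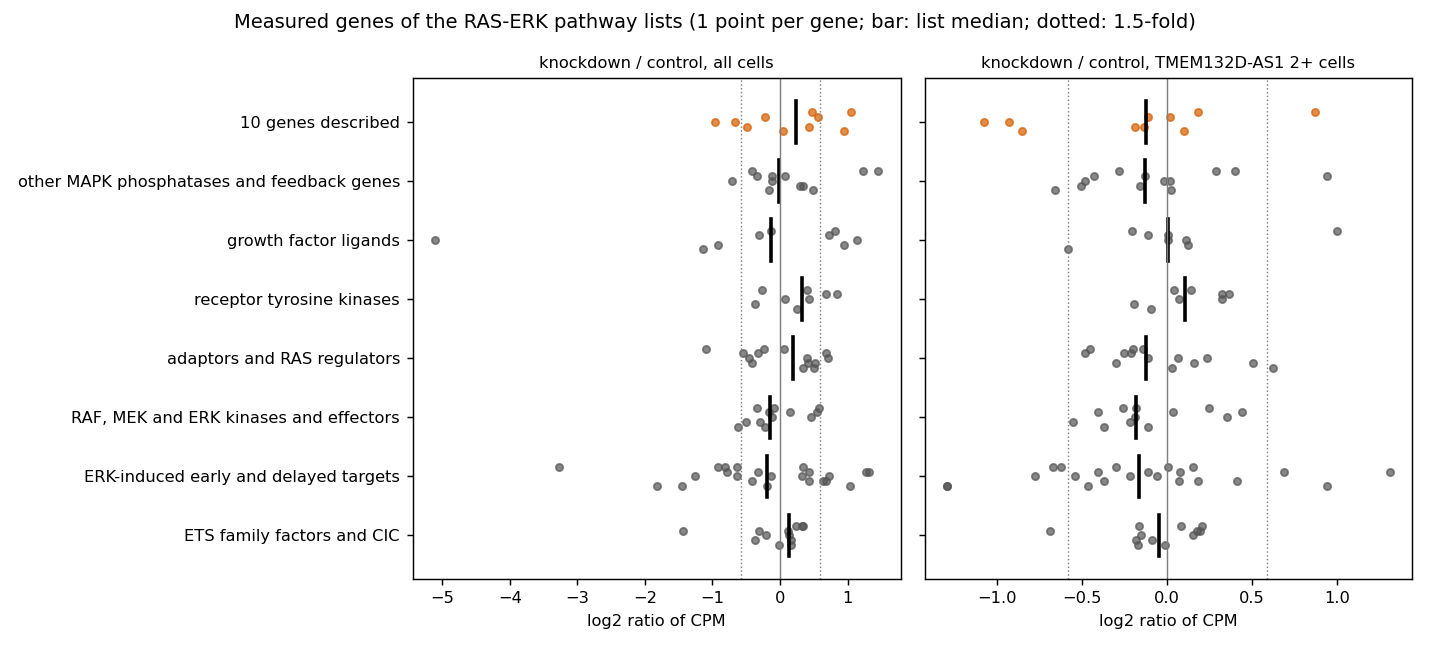
Log2 ratio of knockdown over control (x axis) for each measured gene (points) of the 10 genes described (orange) and of the other RAS-ERK pathway lists (grey; y axis), in all cells (left) and in cells with TMEM132D-AS1 (right). Bars are list medians, dotted lines mark 1.5-fold, and the panels differ in x scale; the 10 genes have a median of 0.24 on the left and -0.12 on the right, and points of most lists lie on both sides of 0.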

How the data were processed

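Single-cell 3' RNA libraries of 2 samples (1 control, 1 GANAB knockdown) were analysed. The authors deposited raw UMI counts per gene and barcode for 6794880 barcodes each, made with Cell Ranger 3.1.0 on GRCh38 per the submitters' processing notes. Whether a mouse genome was in the reference, and the strand rule, are not named in the labels, so reads of host cells may be lost or counted as human genes. The libraries total 239857346 and 155064055 UMIs.

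Counts were summed over cells of a set and divided by their summed UMIs (CPM). Levels have exact Poisson and ratios exact conditional binomial 95% intervals, which cover counting error only. Doublets were not removed. No test was possible with 1 library per group. Code was tested on simulated data and run with Python 3.11.15, numpy 2.4.6, scipy 1.17.1 and pandas 2.3.3. Gene positions are from GENCODE 29. Alternatives changed the cell filters, scaling, cell weights, thinning, CPM minimum, ratio and TMEM132D-AS1 cutoff.

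The 10 genes and all lists were chosen with earlier results of these data known. Named from each other list were up to 4 genes: the 2 of largest absolute log2 ratio over all cells among those called and the 2 of highest mean CPM. The 5 genes nearest to the unscaled sum of the 10 were named by rank of correlation. Genes overlapping a member on the opposite strand, CD68, DCN, LUM, COL1A1 and HBB were named after their values were seen. The comparison of cells without TMEM132D-AS1 was added after the data were seen.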

Additional observations from a re-analysis of the deposited data

Results flagged for a closer look

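DUSP5 had opposite directions in the cells with and without TMEM132D-AS1. Knockdown over control gave a log2 ratio of -0.11 (-0.22 to -0.01) with the marker and 0.44 (0.36 to 0.52) without it, and both counting intervals exclude 0. The difference was not tested, since each set of cells comes from 1 library per group. With a cutoff of at least 4 UMIs of TMEM132D-AS1 the first value was 0.01.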

How the results depend on the processing

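Over the alternative settings, 338 of 370 values of the 10 genes stayed within the counting interval of the value reported, 32 moved outside it, and no called value changed sign. The counts called among the 10 genes moved by more than 1.5 times only when the ratio required was raised to 2. With a ratio of at least 2, over all cells 1 gene was higher (DUSP4) and 0 lower. Among marked cells 0 were higher and 1 lower (ETV4), and within the control library 1 was higher (SPRY4). Scaling without mitochondrial and ribosomal protein genes added DUSP5 to those higher over all cells, giving 3 in place of 2. Among uncalled values, SPRED2 in the cells with TMEM132D-AS1 ranged from -0.21 to 0.09 and PHLDA1 there from -0.02 to 0.17.

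Over all measured genes the counts higher and lower in the knockdown depended on the rule. They were 3244 and 2135 without a CPM minimum and 230 and 185 at a ratio of 2, against 605 and 821. For cells with TMEM132D-AS1 they were 1071 and 846, and 93 and 73, against 276 and 354, with 453 higher at 5 CPM and 415 higher when scaled without mitochondrial and ribosomal protein genes. Within the control library they were 1390 and 1028, and 113 and 83, against 360 and 346. No paired analysis was possible because each group has 1 library and the replicate number only names it. The 241 control cells with TMEM132D-AS1 limit every ratio that uses them: ETV4 rests on 199 UMIs there and DUSP4 on 205.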
